A study of Danio rerio with 24 samples.

Results

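Activation of sox9b was examined in 6 of the 24 libraries of a CRISPR-Q series in zebrafish. All libraries were made from whole embryos at 4 days post fertilization. The 6 libraries were chosen by line: 3 came from 3Tg embryos, which carried the CRISPR-Q components together with sgRNAs directed at sox9b, and 3 came from 2Tg embryos of the same families, which carried the components without a guide. In this activating version, called CRISPR-Qa, the guides direct a transcriptional activator to the gene. Both groups shared the transgenes other than the guide, including the QFvpr driver behind the hsp70l promoter. Both were raised at 28.5 °C and were heated for 1 h on day 2 and once more on day 3. The control therefore had the driver and the heat, and the guide was the labelled difference. The labels name neither the number of embryos in a library nor the clutch. Every p below therefore measures a spread between libraries, which may be technical. In fits of all 24 libraries that spread was taken over all 4 lines, and elsewhere within the sox9b line.

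Sox9b is a transcription factor of the SoxE family, which binds DNA through an HMG box. Zebrafish have a pair of Sox9 genes, sox9a and sox9b. They act in neural crest cells and in the cartilage condensations that these cells form, where Sox9 with its SoxD partners Sox5 and Sox6 switches on collagen and aggrecan genes of the cartilage matrix. The gene is also known from the otic vesicle, from Muller glia and radial glia, from the ducts of liver and pancreas, from heart valves and from fins.

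sox9b (ENSDARG00000043923) was listed at 17.1, 18.4 and 18.2 TPM (a transcript share that is scaled for gene length) in 2Tg replicates 1, 2 and 3. In the 3Tg libraries it was listed at 39.7, 34.8 and 31.5 TPM. The groups did not overlap, and the lowest 3Tg library lay well above the highest 2Tg library. The mean was 17.9 ± 0.675 TPM in 2Tg and 35.3 ± 4.13 TPM in 3Tg (SD, n = 3 each), a ratio of 1.98. On the log2(TPM + 1) scale the difference was 0.94 with a standard error of 0.134 and a 95% interval from 0.63 to 1.25. Its unadjusted p in limma was 0.000112, the third smallest of 19619 genes tested, and its Benjamini-Hochberg adjusted p was 0.733. The exact permutation test of the single value, two-sided, gave p = 0.1, the smallest that 3 libraries against 3 allow. The activated gene thus did not pass the adjusted threshold of 0.05, although its interval stayed above 0 and all 3 guided libraries exceeded all 3 controls.

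The levels of sox9b in the other 3 lines of the series place these values. They come from separately made tables and are a description. In the 18 libraries of the smn1, tardbp and lin28a lines, sox9b ranged from 3.85 to 26.4 TPM with a median of 11.97 TPM. All 3 guided sox9b libraries lay above that range, and the 3 control libraries lay inside it. In order of their means, the groups were sox9b 3Tg at 35.3 TPM, sox9b 2Tg at 17.9 TPM, smn1 3Tg at 16.7 ± 8.40 TPM, tardbp 2Tg at 14.8 ± 2.46 TPM, lin28a 3Tg at 14.2 ± 6.15 TPM, smn1 2Tg at 11.0 ± 3.74 TPM, lin28a 2Tg at 9.79 ± 1.61 TPM and tardbp 3Tg at 6.28 ± 2.11 TPM (SD, n = 3 each). From sox9b 2Tg down to lin28a 2Tg, neighbours in this order differed by less than the larger of their SDs, and the last step, to tardbp 3Tg, was larger than either SD.

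The difference of sox9b between 3Tg and 2Tg was then compared between lines in 1 limma fit over all 24 libraries. In that fit it was 0.94 in the sox9b line, 0.52 in the smn1 line, 0.42 in the lin28a line and -1.15 in the tardbp line, each with a standard error of 0.328. The tardbp value had an adjusted p of 0.0257 in that fit. The value of the sox9b line had an unadjusted p of 0.00914 there and did not pass after adjustment. The decrease in the tardbp line was not particular to sox9b. sox9a was at -0.96 there (adjusted p = 0.0447 in limma), and the other SoxE and SoxD genes were negative too, from -0.56 in sox6 to -0.87 in sox10. The sox9b line minus the mean of the other 3 lines gave 1.01 with a standard error of 0.379, an unadjusted p of 0.0142 and an adjusted p of 0.830. Against the lin28a line alone, the other activation line, it was 0.52 (unadjusted p = 0.274), against the smn1 line alone 0.42 (unadjusted p = 0.377), and against the tardbp line alone 2.09 (adjusted p = 0.155). The difference from the mean of the other lines was thus mostly the difference from the tardbp line. In that line the library of 3Tg replicate 3 summed to 778190 TPM, below the 983631 to 990345 TPM of the other 23, and without it the difference from the mean of the other lines was 0.92.

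**Figure D1:**
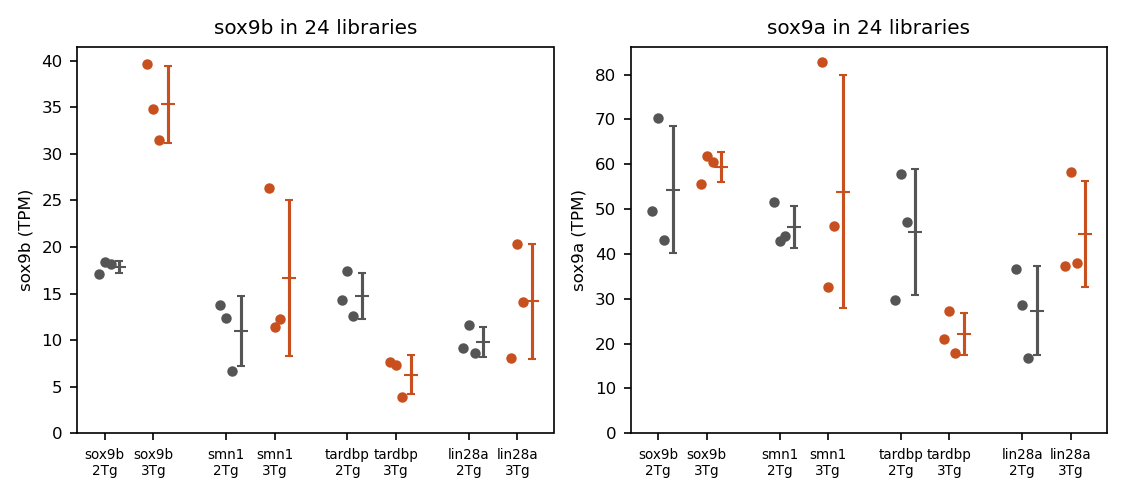
TPM of sox9b (left) and sox9a (right) in each library of the 4 lines, with 2Tg in grey and 3Tg in orange, and the group mean with its SD beside the points (n = 3). The 3 guided sox9b libraries sit between 31.5 and 39.7 TPM, above the other 21 libraries for sox9b, while sox9a in the same libraries sits inside the range of their controls.

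sox9a (ENSDARG00000003293), the paralog, was listed at 49.6, 70.24 and 43.1 TPM in 2Tg and at 55.7, 61.9 and 60.6 TPM in 3Tg. All 3 guided libraries lay between the lowest and the highest control. The mean was 54.3 ± 14.2 TPM in 2Tg and 59.4 ± 3.26 TPM in 3Tg (SD, n = 3), a log2 difference of 0.16 with a standard error of 0.179 and an interval from -0.26 to 0.57. The exact permutation p was 0.6, and the limma p before adjustment was 0.412.

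The remaining SoxE and SoxD factors had small values or overlapping groups. sox8a, a SoxE gene, was listed at 0.223, 0.816 and 0.996 TPM in 2Tg and at 1.099, 2.62 and 1.11 TPM in 3Tg. sox8b, its duplicate, was listed at 1.17, 1.18 and 1.195 TPM in 2Tg and at 1.74, 1.66 and 1.89 TPM in 3Tg. In both genes the groups did not overlap, at levels below 3 TPM, and the log2 differences were 0.62 (interval -0.09 to 1.33) and 0.34 (interval -0.10 to 0.78). sox10, the SoxE gene of neural crest, pigment cells and glia, was listed at 9.73, 11.4 and 9.41 TPM in 2Tg and at 10.19, 11.97 and 11.6 TPM in 3Tg, with overlapping groups. sox5, sox6 and sox13, the SoxD genes, had log2 differences of 0.14, 0.32 and 0.13 with overlapping groups. All 8 SoxE and SoxD genes had a positive sign, also with median centring and with quantile normalization, and 3 of them had no overlap (37.5%), beside 4.75% of all genes tested with no overlap. Their median log2 difference was 0.24, against 0.07 over all genes tested, and 0.10 with 7 of 8 positive when 2Tg replicate 3 was left out. These counts and medians include sox9b, the guided gene itself. They also include sox8a, which reached 1 TPM in the 3 guided libraries only. It passed the filter of 1 TPM in 3 libraries through that group alone, so its lack of overlap was set by the filter and is no support for a difference. The other members had log2 differences from 0.13 to 0.62, and those without overlap among them were sox8a and sox8b. Their middle value was that of sox9a, 0.16, which lay inside the quartiles of all genes (-0.03 and 0.17). None but sox9b had an unadjusted p under 0.05, and none was called in limma.

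Genes beside sox9b on its chromosome were read in the order of the RefSeq table of assembly GRCz12tu. sox9b is the last protein-coding gene of chromosome 3 in that table, so neighbours were taken from 1 side. The nearest, sstr2b, which encodes a somatostatin receptor, was listed at 0.828, 0.944 and 0 TPM in 2Tg and at 0.339, 0.449 and 1.63 TPM in 3Tg and was too low to be tested. The next was sox8b, described above. proza, gprc5ba and iqck had log2 differences of 0.07, 0.22 and -0.02, all with overlapping groups. No neighbour passed the test.

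Over all genes, limma called 0 of 19619 (0%) at an adjusted p under 0.05, and the smallest adjusted p was 0.733. At an unadjusted p under 0.05 there were 239 genes (1.22%), of which 162 were higher in 3Tg (0.826%) and 77 lower (0.392%). Groups did not overlap in 932 genes (4.75%), with 706 higher in 3Tg (3.6%) and 226 lower (1.15%). Groups drawn at random would on average give a share of 0.05 of genes by the first measure. By the second they would give 0.1, from the 20 ways to split the libraries. Both observed shares were below these averages, so neither count exceeded them. A share below the average cannot show that no gene differed, since the count by p also depended on single control libraries, as given below. The median log2 difference was 0.07, with quartiles of -0.03 and 0.17, and 66.9% of genes had a difference above 0. Signs depended on the scaling between libraries: with each library centred on its median, 45.8% of genes were above 0, and the genes at an unadjusted p under 0.05 split into 116 higher and 149 lower. With quantile normalization they split into 128 higher and 158 lower. With TPM rescaled without mitochondrial genes and the top 20 genes, 66% of genes were above 0, and the split was 177 higher and 88 lower. The surplus of higher genes thus held in the deposited scale and in this rescaling. It did not hold with median centring or quantile normalization. The 95% interval lay within -1 to 1 in 17376 genes (88.6%). It did so in 9279 of the 9733 genes whose mean log2(TPM + 1) was above the value for 10 TPM (95.3%).  A log2 difference beyond 1 in size was seen in 49 genes, 32 of them higher in 3Tg, and 31 of the 49 had a mean under 5 TPM in both groups. The count at an unadjusted p under 0.05 was 930 without 2Tg replicate 2 and 403 without 2Tg replicate 3. When libraries were weighted by their estimated precision, 27 genes were called, sox9b among them at an adjusted p of 0.00455, in a fit that gave 2Tg replicate 1 a weight of 22.4 and 2Tg replicate 3 a weight of 0.18.

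**Figure D2:**
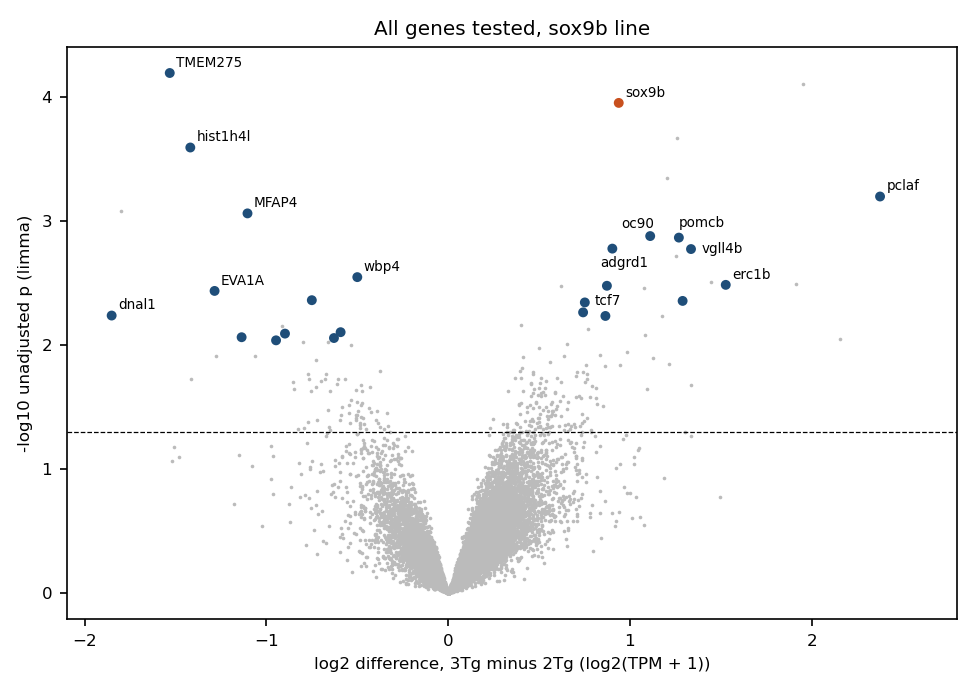
Each point is 1 of 19619 genes, with its log2 difference between 3Tg and 2Tg (x) and the negative log10 of its unadjusted limma p (y); the dashed line marks 0.05, sox9b is orange and the other genes of smallest p named in the text are blue. sox9b stands at 0.94 with the third smallest p, and the quartiles of all genes are -0.03 and 0.17.

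The 12 higher and 12 lower genes of smallest p with no overlap between groups and a gene name are given as values, since none was called. They were mostly of low level: in 12 of the 24 the highest library was under 5 TPM, 8 were listed at 0 in at least 1 library, and 3 were above 10 TPM in all 6. Their unadjusted p in limma ranged from 6.44e-05 to 0.00918. pomcb, erc1b, pimr62 and snx20 reached 1 TPM in the 3 guided libraries only. TMEM275, MFAP4 and the hist1h4l entry ENSDARG00000105409 reached it in the 3 control libraries only. These genes passed the filter of 1 TPM in 3 libraries only through the group where they were high. Their lack of overlap was therefore set by the filter and is no support for a difference.

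Among the higher genes, vgll4b, which encodes a cofactor of TEAD transcription factors, had the highest level. It was listed at 17.5, 36.4 and 19.2 TPM in 2Tg and at 64.0, 73.2 and 45.5 TPM in 3Tg, a log2 difference of 1.34 with a standard error of 0.288. oc90 encodes otoconin 90, a matrix protein of otoliths, and is also a member of the otic list below. It was listed at 0.915, 1.54 and 0.808 TPM in 2Tg and at 4.38, 3.14 and 2.98 TPM in 3Tg, a log2 difference of 1.11 with a standard error of 0.231. tcf7, an HMG-box factor of Wnt signalling, was listed at 4.70, 3.82 and 3.35 TPM in 2Tg and at 6.16, 9.64 and 8.65 TPM in 3Tg, a log2 difference of 0.87. adgrd1, an adhesion G protein-coupled receptor, was listed at 1.97, 2.84 and 2.64 TPM in 2Tg and at 5.63, 6.15 and 4.73 TPM in 3Tg, a log2 difference of 0.90. pclaf, which encodes a PCNA-binding factor of DNA replication, was listed at 0, 1.51 and 0 TPM in 2Tg and at 3.33, 8.16 and 7.86 TPM in 3Tg. pomcb, a proopiomelanocortin gene, was listed at 0.883, 0.502 and 0.237 TPM in 2Tg and at 1.89, 2.68 and 3.61 TPM in 3Tg. erc1b, of the presynaptic ELKS family, was listed at 0 in all 3 control libraries and at 4.29, 1.18 and 1.08 TPM in 3Tg. The other 4 were drd4a, a dopamine receptor, with a log2 difference of 0.75, snx20, a sorting nexin, with 0.87, fam78aa with 0.74, and pimr62, of a large family of Pim-like kinases whose copies may share reads, listed at 0 in 2 control libraries.

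The line comparison did not single these genes out at the adjusted threshold. For oc90 the log2 difference was -0.46 in the smn1 line, -0.87 in the tardbp line and 0.08 in the lin28a line, and the sox9b line minus the mean of these was 1.53 (unadjusted p = 0.00101, adjusted p = 0.830 in limma). For vgll4b it was -0.22, -1.06 and 0.33 in the same lines, and the line difference was 1.65 (unadjusted p = 0.0113, adjusted p = 0.830 in limma). In both genes the lin28a line, the other activation line, had a smaller positive value. Over all genes, the line difference called 0 of 19619 (0%), with 892 at an unadjusted p under 0.05.

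Among the lower genes, wbp4, which encodes a spliceosome protein, had the highest level. It was listed at 31.9, 34.1 and 35.2 TPM in 2Tg and at 23.1, 24.8 and 22.8 TPM in 3Tg, a log2 difference of -0.50 with a standard error of 0.118. Its difference was -1.54 in the smn1 line, -1.87 in the tardbp line and 0.36 in the lin28a line. aprt, the adenine phosphoribosyltransferase of purine salvage, was listed at 8.42, 11.0 and 13.2 TPM in 2Tg and at 6.27, 5.56 and 6.09 TPM in 3Tg, a log2 difference of -0.75. pdf, a peptide deformylase, had a log2 difference of -0.59 and mrap2a, a melanocortin receptor accessory protein, one of -0.90. gfi1ab, a zinc finger repressor, had -0.63 and cand2, a cullin-binding protein, -0.95. dnal1, an axonemal dynein light chain, was listed at 7.10, 6.998 and 9.55 TPM in 2Tg and at 2.47, 0 and 3.19 TPM in 3Tg.

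The lower genes of smallest p had low levels. TMEM275, an uncharacterised membrane protein gene, was listed at 1.77, 2.00 and 1.92 TPM in 2Tg and at 0 in all 3 guided libraries. The entry ENSDARG00000105409 of hist1h4l, a histone H4 gene, was listed at 1.35, 2.29 and 1.48 TPM in 2Tg and at 0 in all 3 guided libraries. That symbol is shared by 24 entries, between which reads may be split, and another of them, ENSDARG00000105382, was listed at 1.28, 3.60 and 2.79 TPM in 2Tg and at 3.92, 6.94 and 9.63 TPM in 3Tg. The 2 entries therefore had opposite signs. MFAP4, a microfibril-associated glycoprotein gene with related copies in zebrafish, was listed at 2.24, 2.06 and 2.13 TPM in 2Tg and at 0.413, 0.273 and 0.736 TPM in 3Tg. EVA1A and rock2bl were each listed at 0 in 1 guided library.

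Genes of the cartilage matrix, the known targets of Sox9 proteins, had overlapping groups in every member tested. In bulk tissue, fewer cells of a type and less RNA per cell cannot be told apart, which holds for every list below. col2a1a, the main cartilage collagen gene, was listed at 365, 414 and 516 TPM in 2Tg and at 379, 558 and 472 TPM in 3Tg. The 2 groups covered nearly the same range, and the log2 difference was 0.12 with an interval from -0.28 to 0.52. matn1, a matrilin gene of chondrocytes, was listed at 263, 292 and 380 TPM in 2Tg and at 257, 365 and 314 TPM in 3Tg, a log2 difference of 0.01 with an interval from -0.39 to 0.40. acana, which encodes aggrecan, had a log2 difference of 0.01 with an interval from -0.48 to 0.50, and col9a1a one of 0.05 with an interval from -0.37 to 0.47.

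The smallest unadjusted p in the cartilage list belonged to col11a1b, a fibrillar collagen gene, at 0.114. It was listed at 52.8, 57.5 and 49.8 TPM in 2Tg and at 53.8, 67.6 and 68.6 TPM in 3Tg, a log2 difference of 0.24. matn3b, col11a1a and col2a1b had log2 differences of 0.31, 0.20 and 0.19, and the lowest of the list was ucmaa at -0.22. Of 29 members tested, limma called 0, none had an unadjusted p under 0.05 and none had groups without overlap. Over all genes, 1.22% had such a p and 4.75% had no overlap. By sign 26 were higher in 3Tg, where 66.9% of all genes were, with a median of 0.06 against 0.07 over all genes. With median centring 12 of the 29 were higher and the median was -0.02. The interval lay within -1 to 1 in 28 of the 29 (88.6% over all genes). The summed level of the list was 2349, 2489 and 3332 TPM in 2Tg and 2296, 3431 and 2905 TPM in 3Tg. 2Tg replicate 3 and 3Tg replicate 2 were high and the other 2 controls and 3Tg replicate 1 were low, so the spread within a group exceeded the difference between groups. Without 2Tg replicate 3 the median was 0.22, with 27 of the 29 higher in 3Tg. Leaving out 3Tg replicate 2, the high guided library, moved values the other way. col2a1a was then -0.015, col9a1a -0.087, acana -0.16 and matn1 -0.11, while col2a1b and col11a1a stayed positive at 0.10 and 0.083.

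**Figure D3:**
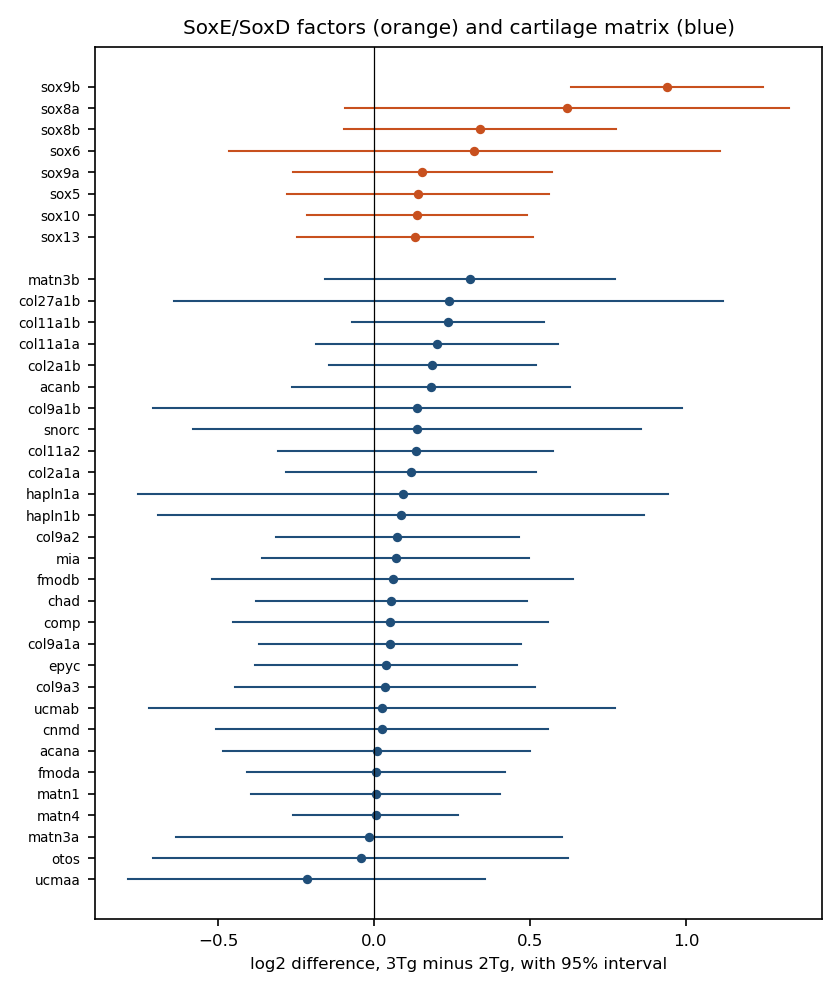
Log2 difference between 3Tg and 2Tg with its 95% interval (limma, n = 3 against 3) for the 8 SoxE and SoxD genes in orange and the 29 cartilage matrix genes in blue. The interval of sox9b, from 0.63 to 1.25, lies above 0, and those of all 29 cartilage genes include 0.

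Bone and hypertrophic cartilage genes had a median of 0.05 in 18 members tested, 12 of them positive by sign, and limma called 0. With median centring 8 of the 18 were positive and the median was -0.03, and without 2Tg replicate 3 the median was 0.10. The collagen I genes, the main matrix of bone and skin, had the smallest p of the list. col1a1a was listed at 716, 670 and 846 TPM in 2Tg and at 789, 1094 and 1056 TPM in 3Tg, a log2 difference of 0.39 (unadjusted p = 0.0303, adjusted p = 1.00 in limma). col1a1b was listed at 413, 415 and 481 TPM in 2Tg and at 477, 567 and 606 TPM in 3Tg, a log2 difference of 0.33 (unadjusted p = 0.0237, adjusted p = 1.00 in limma). col1a2 had a log2 difference of 0.30. In each of the 3 genes, 3Tg replicate 1 lay below 2Tg replicate 3, so the groups overlapped.

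The neural crest and pigment list had a median of 0.15 in 25 members tested, with 18 positive by sign (15 with median centring) and 0 called, and 0.06 with 15 positive without 2Tg replicate 3. tyrp1a, a melanin synthesis gene, was listed at 12.1, 17.0 and 15.7 TPM in 2Tg and at 19.1, 18.2 and 19.7 TPM in 3Tg. tfec, a transcription factor of pigment cells, was listed at 2.78, 2.402 and 2.17 TPM in 2Tg and at 3.26, 3.07 and 3.61 TPM in 3Tg. These were the 2 of 25 without overlap (8%, beside 4.75% of all genes), with log2 differences of 0.34 and 0.32. pmela and dct, both of the melanosome, had 0.17 each with overlapping groups, and foxd3, a factor of early neural crest, had -0.08. In the list of pharyngeal arch patterning genes, 11 of 19 were positive, the median was 0.02 (0.07 without 2Tg replicate 3) and 0 were called. emx2 and dlx4b, both homeobox genes, had log2 differences of 0.37 and 0.38. dlx4b was the 1 of 19 with groups without overlap (5.26%, beside 4.75% of all genes).

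In the otic list, 10 of 17 tested members were positive, the median was 0.02 and 0 were called. Beside oc90, described above, stm and otomp, which encode abundant otolith matrix proteins, were at or below their control levels. stm was listed at 90.2, 111 and 84.7 TPM in 2Tg and at 79.5, 96.4 and 103 TPM in 3Tg, and its log2 difference was -0.03. otomp had a log2 difference of -0.06. The hair cell genes myo6b and pou4f3 had 0.39 and 0.30 with overlapping groups, and atoh1a, the factor that starts hair cell fate, had -0.20 at about 2 TPM without overlap. oc90 and atoh1a, of opposite sign, were the list members without overlap (11.8%, beside 4.75% of all genes).

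The list named for Muller and radial glia had a median of 0.09 in 20 members tested, with 15 positive (11 with median centring) and 0 called. It also holds myelin genes, which are not markers of those cells. These were mbpa, mbpb, plp1a, plp1b and mpz, with log2 differences of 0.10, 0.12, 0.12, -0.09 and 0.17. The median and sign count are therefore those of a mixed glial list. her4.1, a Notch target of neural progenitors, was listed at 10.6, 6.97 and 8.47 TPM in 2Tg and at 12.1, 13.6 and 13.7 TPM in 3Tg, a log2 difference of 0.56 (unadjusted p = 0.0138, adjusted p = 1.00 in limma). gfap, the glial filament gene, was listed at 116, 119 and 118 TPM in 2Tg and at 131, 129 and 130 TPM in 3Tg, a log2 difference of 0.14 with an interval from -0.07 to 0.35. The groups of gfap were tight and did not overlap, yet the step between them was small. her4.1 and gfap were the list members without overlap (10%, beside 4.75% of all genes). slc1a2b, a glial glutamate transporter, had 0.18 with overlapping groups.

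Of the other tissues in which Sox9 acts, the fin list had a median above the upper quartile of all genes and the other lists lay inside the quartiles. In ductal progenitors of liver and pancreas, 8 of 16 members were positive (5 with median centring) with a median of 0.00, and prox1a and ptf1a had log2 differences of 0.25 and 0.29. In the heart valve and cardiac list, 12 of 18 were positive (9 with median centring) with a median of 0.06, and 0.11 without 2Tg replicate 3. Its only member without overlap was nppb, a natriuretic peptide gene, at -0.42 (5.56% of the list, beside 4.75% of all genes). In the fin list, 10 of 11 were positive (7 with median centring) with a median of 0.19, and 0.08 without 2Tg replicate 3. hmcn1 and hmcn2, hemicentin genes of the fin fold, had 0.47 and 0.38 with overlapping groups. In the list of Fgf, Bmp, Wnt and hedgehog response genes, 19 of 24 were positive (10 with median centring, 14 without 2Tg replicate 3). Its median was 0.06, and etv5b and axin2 had 0.26 and 0.24 without overlap (8.33% of the list, beside 4.75% of all genes). limma called 0 members in each of these 4 lists.

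Lists for other cell types, the heat response and cell stress were read in the same way. Across all 25 lists, 506 different genes were tested and limma called 0. Of the 506, 7 had an unadjusted p under 0.05 (1.38%, beside 1.22% of all genes) and 18 had groups without overlap (3.56%, beside 4.75%). The 7 were sox9b, oc90, col1a1a, col1a1b, her4.1, lct and egfl7. lct, a disaccharidase gene of enterocytes, was listed at 3.07, 1.48 and 1.73 TPM in 2Tg and at 4.16, 3.46 and 4.81 TPM in 3Tg, while the list of 23 enterocyte genes had a median of -0.02, and 0.10 without 2Tg replicate 3. egfl7, an endothelial secreted protein gene, was listed at 6.59, 8.27 and 7.09 TPM in 2Tg and at 5.22, 4.65 and 5.54 TPM in 3Tg, and the list of 16 endothelial genes had a median of 0.06 with 9 positive, and of -0.09 with 4 positive without 2Tg replicate 3. The muscle genes ryr1b and ttn.1, of the calcium release channel and of titin, had 0.39 and 0.31 without overlap. Their list of 30 had a median of 0.03 and 6.67% without overlap, beside 4.75% of all genes. Neuronal genes had a median of 0.08 in 24 members, with slc17a6b, a vesicular glutamate transporter, at 0.32. cxcl8a, a neutrophil chemokine gene, had -0.43 without overlap (4.55% of its list, beside 4.75% of all genes). Its blood and immune list of 22 had a median of 0.01 with 14 positive, and of -0.03 with 8 positive without 2Tg replicate 3.

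Hepatocyte, keratinocyte and ionocyte, and photoreceptor and lens lists had medians of -0.03, -0.02 and -0.01. Without 2Tg replicate 3 the hepatocyte median was 0.02, with 14 of 23 positive in place of 8, and the keratinocyte and ionocyte median was -0.09. The cell cycle list had 0.01, with mcm7, of the replicative helicase, at -0.18, and the p53 list 0.05, with casp8 at -0.26 and cdkn1a at 0.25. Without 2Tg replicate 3 the p53 median was -0.18 and the cell cycle median 0.16, with 17 of 24 positive in place of 13. The 5 hatching gland genes tested were all negative by sign with a median of -0.15. limma called 0 members in every one of the 25 lists, and the groups overlapped in the summed level of all 25. The direction of a list's median often depended on the scaling or on 1 control library. In the deposited scale 6 of the 25 medians were below 0, against 21 with median centring and 14 with quantile normalization. There were 7 with the rescaling without mitochondrial genes and the top 20 genes, and 9 without 2Tg replicate 3.

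**Figure D4:**
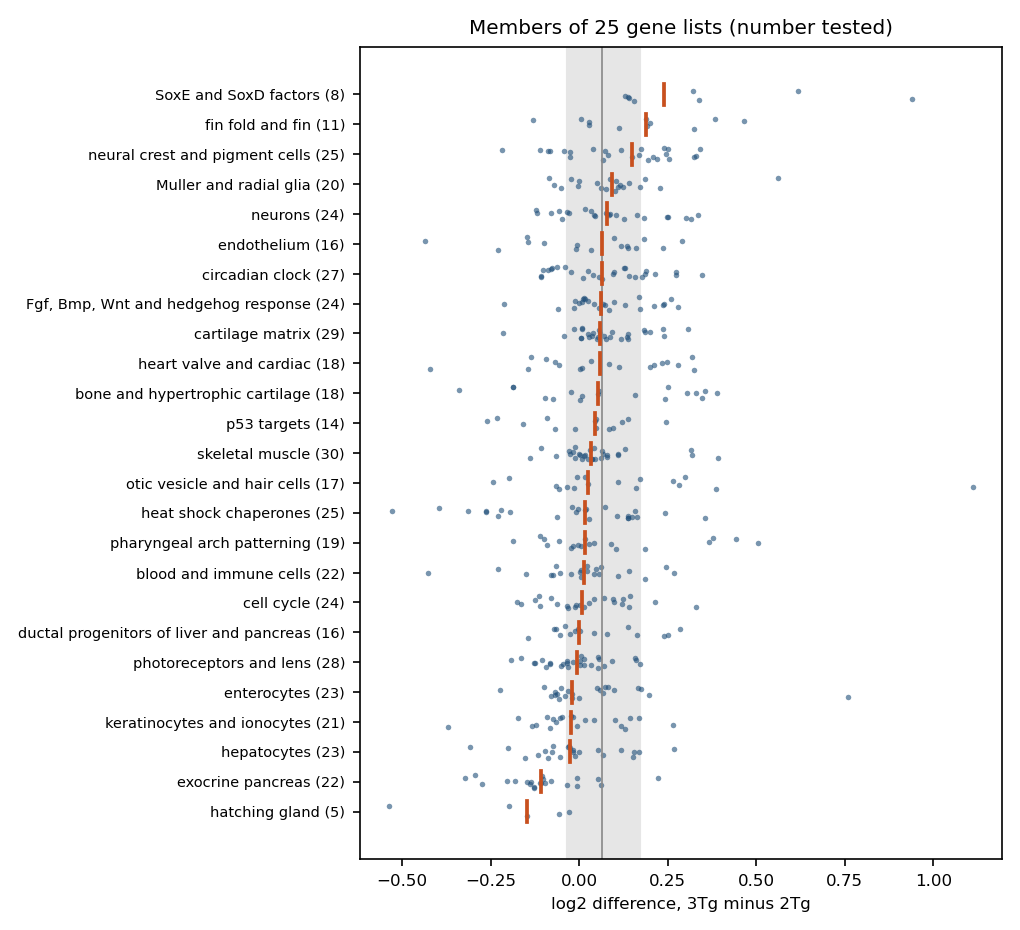
Log2 difference between 3Tg and 2Tg of each tested member (blue points) of 25 gene lists, with the list median as an orange bar, the number tested in brackets, and the median and quartiles of all 19619 genes as a grey line and band. All list medians except those of the exocrine pancreas and the hatching gland, at the bottom, and of the SoxE and SoxD genes and the fin list, at the top, lie inside the band. The SoxE and SoxD list includes sox9b, the guided gene. Without sox9b, its middle member is sox9a at 0.16, inside the band.

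Libraries of 1 group differed among themselves more than the groups did in several lists. 2Tg replicate 3 stood apart: 1331 genes (6.78%) lay more than 1 on the log2 scale from the mean of the other 5 libraries, against 134 to 355 genes in each of those. By the median deviation of a list in a library, the circadian clock genes showed the widest spread, and by the summed level the exocrine pancreas genes did. per1b, a light- and clock-controlled repressor, was listed at 4.85, 8.57 and 0.379 TPM in 2Tg and at 5.29, 0.354 and 6.70 TPM in 3Tg. tefa, a clock output factor, was listed at 72.7, 125 and 13.6 TPM in 2Tg and at 89.96, 17.9 and 102 TPM in 3Tg. In both genes 2Tg replicate 3 and 3Tg replicate 2 were low and the other 4 libraries high. The median deviation of the 27 clock genes from the mean of the other 5 libraries was -1.11 in 2Tg replicate 3, -1.04 in 3Tg replicate 2 and 0.30 to 0.73 in the others. Since 1 low library fell in each group, the median difference of the list was 0.06, and it was -0.49 without 2Tg replicate 3. Only 10 of the 27 had an interval within -1 to 1.

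hsp70l, the heat shock gene whose promoter drives QFvpr, was listed at 181, 464 and 20.1 TPM in 2Tg and at 394, 54.9 and 25.9 TPM in 3Tg. It was thus high and low in both groups. In the guided libraries its order was that of sox9b (39.7, 34.8 and 31.5 TPM), an order that 3 libraries can share by chance. In the controls, hsp70l spanned 20.1 to 464 TPM and sox9b 17.1 to 18.4 TPM. They carried no guide, so their values cannot show whether the 2 are linked in guided embryos. A link between hsp70l and sox9b was not tested. The heat shock list of 25 genes had a median of 0.02 with 13 positive. Exocrine pancreas genes were negative by sign in 19 of 22, with a median of -0.11, where 3 were positive, and 7 were positive without 2Tg replicate 3. The digestive enzyme prss1 was listed at 895, 373 and 681 TPM in 2Tg and at 622, 629 and 466 TPM in 3Tg, and the summed list at 6917, 2771 and 4980 TPM in 2Tg and at 4886, 4566 and 3286 TPM in 3Tg. The controls held both the highest and the lowest pancreas library. cela1.5 and cela1.6, of the same tissue, had -0.32 and -0.28. The part of these library differences in any value above was not tested beyond leaving libraries out.

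**Figure D5:**
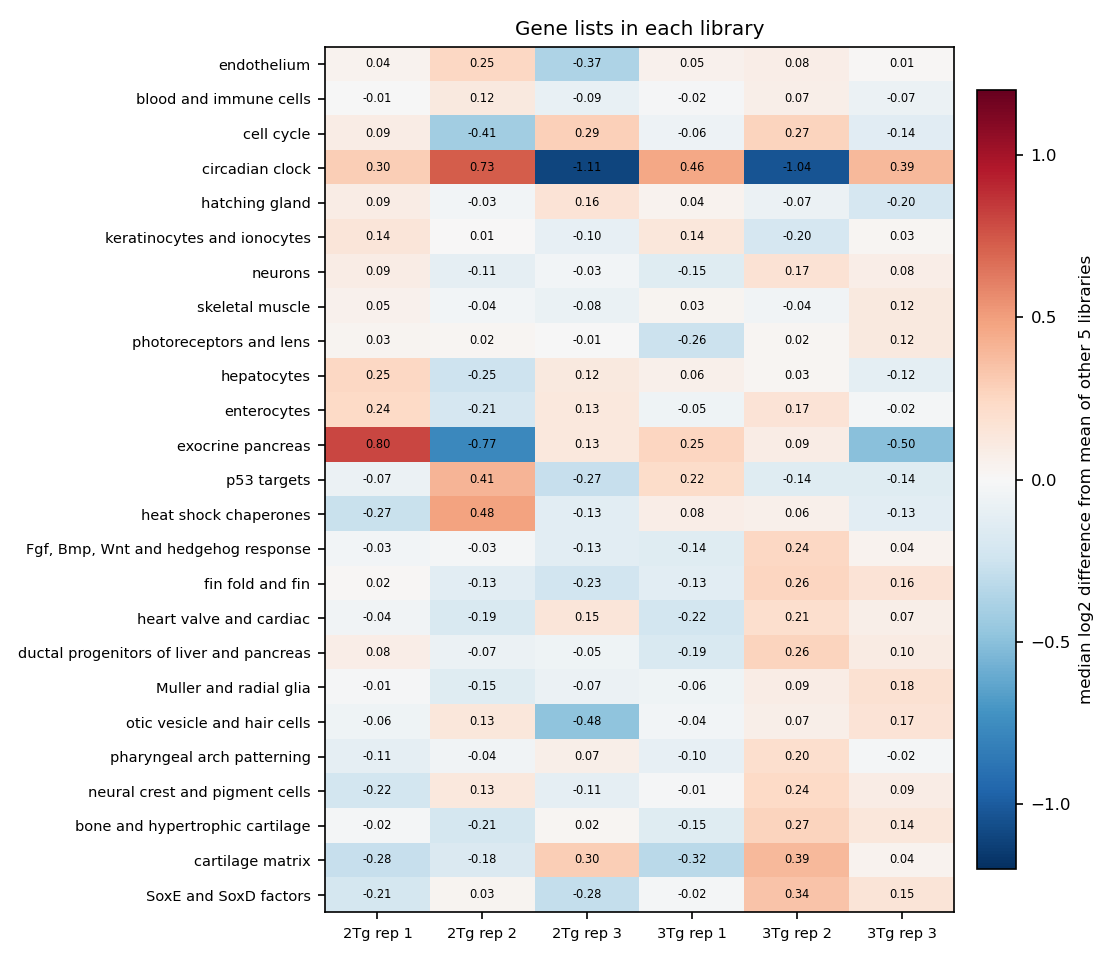
Median log2 difference of each gene list in a library from the mean of the other 5 libraries, for the 6 libraries of the sox9b line; red is above and blue below. The clock list stands at -1.11 in 2Tg replicate 3 and -1.04 in 3Tg replicate 2, and the exocrine pancreas list at 0.80 in 2Tg replicate 1 and -0.77 in 2Tg replicate 2.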

How the data were processed

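Each line has its own deposited table of TPM values, with 25432 genes in each, per the file headers. Read depth is unknown. The submitters' processing notes name Trimmomatic 0.39, STAR 2.7.10b, Salmon 1.10.1 and the builds GRCz11 and danRer11, without their roles. TPM summed to between 983631 and 989991 in the 6 libraries of the sox9b line, and 34 of 35 cell type markers reached 1 TPM in all 6 (the neural crest gene crestin ranged from 0.778 to 1.73). No 2 libraries were identical.

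Genes that reached 1 TPM in 3 or more libraries of the sox9b line entered the test on log2(TPM + 1) with limma 3.58.1 in R 4.3.3 (trended prior, two-sided, Benjamini-Hochberg over all genes tested, threshold 0.05). A pseudocount of 1 understates differences of low genes. The scripts were tested on simulated data. Lines were compared as differences within each table, in 1 fit of 24 libraries. A gene listed at 0 may be a failed estimate, so its values are given per library. RefSeq neighbours served for gene order only.

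Genes were named by this rule: the SoxE and SoxD genes, the neighbours, hsp70l, the 12 genes of smallest p in each direction without overlap and with a gene name, up to 4 members of smallest p in each list, and cell type markers. atoh1a, stm, otomp, ucmaa, per1b and tefa were added after their values were seen. The comparison, the members and the gene lists were chosen with earlier results of these data known. Alternatives were other pseudocounts, filters, scalings, priors, library weights, a replicate block, 1 fit of all lines, and each library left out.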

Additional observations from a re-analysis of the deposited data

How the results depend on the processing

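limma called 0 genes in every alternative except library weights, which called 27 (18 higher, 9 lower, and 4609 or 23.5% at an unadjusted p under 0.05). That fit gave sox9b 0.94 (adjusted p = 0.00455) and also called pclaf, oc90, adgrd1, vgll4b, pimr62, TMEM275, hist1h4l and MFAP4. It called hist1h4l in both directions, the entry ENSDARG00000105409 at -1.24 and the entry ENSDARG00000105382 at 1.86. Its highest weight was 125 times its lowest and its estimation stopped before its tolerance was met. sox9b was between 0.81 and 1.02 in all 18 alternatives, with adjusted p from 0.541 to 1.00 in the 17 without weights, and sox9a was between 0.01 and 0.35. The rank of sox9b by p, 3 in the main fit, ran from 1 (pseudocount 5 or a filter of 5 TPM) to 11 (1 fit of all 24 libraries). It was 7 with median centring and 8 without 2Tg replicate 1. The replicate numbers did not pair the libraries (correlations of same-numbered libraries of 0.258, -0.338 and -0.139); a replicate block left 0 genes called, 209 at an unadjusted p under 0.05 and sox9b at 0.94 (adjusted p = 1.00). The line difference called 1 gene against the tardbp line alone, a choice made after seeing the data, and 0 to 1 with a sox9b library left out (1 without 2Tg replicate 1); sox9b was not among them, and its line difference was 0.76 with median centring. Genes without overlap numbered 2035 to 4329 with 1 library left out, where 2 libraries are compared with 3, and 967 with median centring.

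Genes with small differences changed sign. With median centring proza was -0.0069, col9a1a -0.030, acana -0.072 (-0.069 with quantile normalization) and matn1 -0.075, and with library weights proza was -0.17, otomp 0.12, stm 0.083 and tefa -0.062. With each library left out in turn, sox6 ranged from -0.033 to 0.70, hsp70l from -1.79 to 0.44, iqck from -0.11 to 0.036, gprc5ba from -0.15 to 0.50, proza from -0.070 to 0.18, col2a1a from -0.015 to 0.26, col9a1a from -0.087 to 0.21, acana from -0.16 to 0.17, matn1 from -0.11 to 0.16, ucmaa from -0.38 to 0.014, otomp from -0.15 to 0.023, stm from -0.11 to 0.080, prss1 from -0.46 to 0.17, per1b from -0.89 to 0.71 and tefa from -0.78 to 0.92. The cause was not tested. TPM carries no read depth, so no counting error could be given for low genes.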

Other observations

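The genes whose difference stood farthest from that of the other 3 lines by p, none of them called in limma (0 of 19619, 892 at an unadjusted p under 0.05), were read after their values were seen. vkorc1, which encodes the vitamin K epoxide reductase needed to carboxylate Gla proteins, had the smallest p. It was listed at 10.5, 9.08 and 12.1 TPM in 2Tg and at 13.6, 15.5 and 15.4 TPM in 3Tg, without overlap, a log2 difference of 0.46. In the smn1, tardbp and lin28a lines its difference was -0.52, -1.42 and -0.10, and the line difference was 1.13 (unadjusted p = 0.000115, adjusted p = 0.830 in limma). hmcn1, the hemicentin gene of the fin fold, had a line difference of 1.23 (unadjusted p = 0.00148, adjusted p = 0.830 in limma), from -0.15, -1.32 and -0.82 in those lines. CYP27A1, a sterol hydroxylase gene, was listed at 3.42, 1.87 and 5.63 TPM in 2Tg and at 6.74, 9.01 and 7.43 TPM in 3Tg, and its line difference was 1.42 (unadjusted p = 0.00233). In vkorc1 and hmcn1 all 3 other lines had negative values, the largest in the tardbp line. CYP27A1 also had negative values there, at -0.62, -0.50 and -0.18 in the smn1, tardbp and lin28a lines, the largest in the smn1 line. Only vkorc1, hmcn1 and CYP27A1 are described here, and other genes had a smaller p than hmcn1 and CYP27A1.

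Genes with a clone name were left out of the named genes by the rule. CT025887.2 had the second smallest p within the sox9b line (7.97e-05 in limma, adjusted p = 0.733). Controls were listed at 0 and guided libraries at 2.68, 1.94 and 4.37 TPM, so it passed the filter through the guided group only. Its log2 difference was 1.95, and 0.16, 0.91 and 1.69 in the smn1, tardbp and lin28a lines. The gene with the fourth smallest p, si:ch73-334d15.2, also carries a clone name. It was listed at 4.79, 5.41 and 3.74 TPM in 2Tg and at 10.1, 13.2 and 14.3 TPM in 3Tg, a log2 difference of 1.26 with a standard error of 0.197 (unadjusted p = 0.000213, adjusted p = 1.00 in limma).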
